A study of Mus musculus with 2 samples.

Results

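The genes described here are the mouse Zfp genes, which encode zinc finger proteins. They were taken as protein-coding rows whose symbol is Zfp followed by a number only, with Zfp36 left out and a mean of the 2 libraries of at least 2 FPKM, a level that counts fragments per kilobase of transcript and scales them to the depth of the library. Of 335 such symbols among 46511 rows, 229 passed the floor, 106 lay below it and 11 of those were listed at 0 in both libraries. The members were thus chosen by their measured levels, the mean FPKM of the same 2 libraries, and their being expressed is not a result. Just inside the floor stood Zfp93, Zfp763 and Zfp760, with means of 2.01, 2.02 and 2.03 FPKM, and just outside it Zfp867, Zfp606 and Zfp661, with 1.97, 1.93 and 1.90 FPKM.

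The libraries were made from effector regulatory T cells of Nrn1-/- mice and of Nrn1+/- mice, with 1 library per genotype. Nrn1 encodes neuritin, a small protein anchored at the cell surface. Both groups were on a C57BL/6 background, carried a Foxp3 allele with a diphtheria toxin receptor and green fluorescent protein (Foxp3DTRgfp), and were sorted as CD4+, CD25+, low in CD62L, high in CD44 and GFP positive. The title of the control library calls it wild type while its genotype label is Nrn1+/-, so every difference is null against heterozygous. The labels used here give no age, and do not say how many mice a library came from. Without replicates the spread between animals is unknown, so differences are described and none is tested. In bulk RNA, fewer cells of a kind and less RNA per cell cannot be told apart.

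The classical zinc finger is a short fold in which 2 cysteines and 2 histidines hold a zinc ion, and proteins carry such fingers in rows that read DNA or bind RNA. Many mouse Zfp proteins also begin with a KRAB domain, which recruits the corepressor Trim28 and through it the histone methyltransferase Setdb1 and heterochromatin proteins. KRAB zinc finger genes arose largely by tandem duplication and sit in clusters, and many of their products bind and silence transposable elements. Zfp proteins without KRAB are a mixed set of transcription factors, RNA-binding proteins and ubiquitin ligases.

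Facts of the libraries as a whole set the frame. Nrn1 itself stood at 4.62 FPKM in Nrn1-/- cells and 66.5 FPKM in Nrn1+/- cells. All 7 T cell and regulatory T cell markers checked were present, from 54.4 to 564 FPKM in Nrn1-/- cells and from 72.8 to 601 FPKM in Nrn1+/- cells. Summed over 5 genes each, B cell markers came to 7.27 and 5.64 FPKM in Nrn1-/- and Nrn1+/- cells and myeloid markers to 0.751 and 0.736 FPKM, with Csf1r listed at 0 in Nrn1-/- cells. All 5 B cell markers and 3 of the 5 myeloid markers were higher in Nrn1-/- cells, and both red cell markers were listed at 0 there and summed to 0.108 FPKM in Nrn1+/- cells. The 3 natural killer markers summed to 116 and 83.5 FPKM, nearly all of it Nkg7, with 1 of 3 higher, and the 2 CD8 markers to 3.93 and 4.92 FPKM, with 1 of 2 higher. Low values of genes with a single transcript lay on steps, from which a fragment on 1 kb of transcript was estimated at 0.0252 FPKM in Nrn1-/- cells and at 0.019 FPKM in Nrn1+/- cells. By those steps the median Zfp gene rested on about 824 fragments in Nrn1-/- cells and 1207 in Nrn1+/- cells, approximate because most genes have several transcripts and the deposited values may have been scaled.

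The coding sequences show what the family shares. Of the 229 genes, 228 have a translatable coding sequence in the GENCODE M21 annotation of GRCm38, and Zfp125 is classed there as a pseudogene. The median gene encoded 10 classical fingers and Zfp142 the most, 36. The finger pattern was not found in 5 genes, Zfp330, Zfp365, Zfp703, Zfp839 and Zfp935. The first canonical finger of 4 genes that were lower in Nrn1-/- cells is printed below from the annotated transcripts, 5′ to 3′, with the codons of the 2 cysteines and 2 histidines in capitals. Zfp53 (chromosome 17) and Zfp169 (chromosome 13) are KRAB genes, while Zfp260 (chromosome 7) and Zfp281 (chromosome 1) have no KRAB pattern.
Zfp53: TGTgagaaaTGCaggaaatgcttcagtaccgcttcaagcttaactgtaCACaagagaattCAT
Zfp169: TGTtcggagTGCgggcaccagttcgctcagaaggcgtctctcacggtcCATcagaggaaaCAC
Zfp260: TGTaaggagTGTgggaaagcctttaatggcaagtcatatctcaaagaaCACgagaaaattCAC
Zfp281: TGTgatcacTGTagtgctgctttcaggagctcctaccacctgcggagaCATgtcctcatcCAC

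A KRAB A box was searched for in the translated sequences by a short pattern of 6 fixed residues, and 102 genes held it while 126 did not. Matching 13 positions of the box instead, with at least 9 required, gave 117 genes. The stretches that encode the box in 4 genes among the 11 with the largest negative ratios are printed next, again 5′ to 3′, with the codons of the 13 positions in capitals. Zfp945 matched all 13 positions in the wider search but not the short pattern.
Zfp53: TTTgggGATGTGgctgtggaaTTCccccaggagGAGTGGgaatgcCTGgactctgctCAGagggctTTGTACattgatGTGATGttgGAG
Zfp943: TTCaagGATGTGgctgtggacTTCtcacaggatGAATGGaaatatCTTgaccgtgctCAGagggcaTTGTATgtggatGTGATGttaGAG
Zfp169: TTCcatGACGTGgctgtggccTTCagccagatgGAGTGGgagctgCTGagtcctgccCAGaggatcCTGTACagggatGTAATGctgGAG
Zfp945: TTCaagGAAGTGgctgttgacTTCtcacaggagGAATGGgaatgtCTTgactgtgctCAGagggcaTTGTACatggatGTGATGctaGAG

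Zfp genes were expressed at modest levels. Their median was 7.25 FPKM in Nrn1-/- cells and 8.27 FPKM in Nrn1+/- cells, against 20.6 and 20.1 FPKM for the 9748 other protein-coding genes above the same floor. Means of both libraries ran from 2.01 to 108 FPKM, and 200 of the 229 genes lay below 20 FPKM. Genes with the KRAB pattern lay lower within the family, with a median of 5.53 FPKM in Nrn1-/- cells and 6.70 FPKM in Nrn1+/- cells. Those without it had medians of 10.2 and 11.1 FPKM.

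The first comparison asks how the family differed between the Nrn1-/- and the Nrn1+/- library. Zfp genes were mostly lower in Nrn1-/- cells by small amounts, with 163 lower and 66 higher (71.2% lower), while 44.9% of all 9977 protein-coding genes above the floor were lower and 55.1% higher. Other scalings of the libraries moved this split to between 176 and 217 of 229 lower, the last beside 75.5% of all protein-coding genes. The median log2 ratio was -0.15 for the Zfp genes and 0.04 for all protein-coding genes. Few single genes stood far out. None was at least 1.5-fold higher on the log2 scale with its pseudocount, where the background was 7.07%, and 11 of the 229 were at least 1.5-fold lower, where the background was 3.6%. With the pseudocount no Zfp gene was 2-fold different in either direction, although Zfp93 was in plain FPKM; for this size the backgrounds were 1.2% higher and 0.221% lower. Among the 9053 protein-coding genes in the same range of levels, the backgrounds were 46.9% lower, 53.1% higher, 6.67% beyond 1.5-fold higher, 3.68% beyond 1.5-fold lower, 1.27% beyond 2-fold higher and 0.21% beyond 2-fold lower. The share of large negative ratios in the family was thus near the background, and its balance lay in many small differences.

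**Figure D1:**
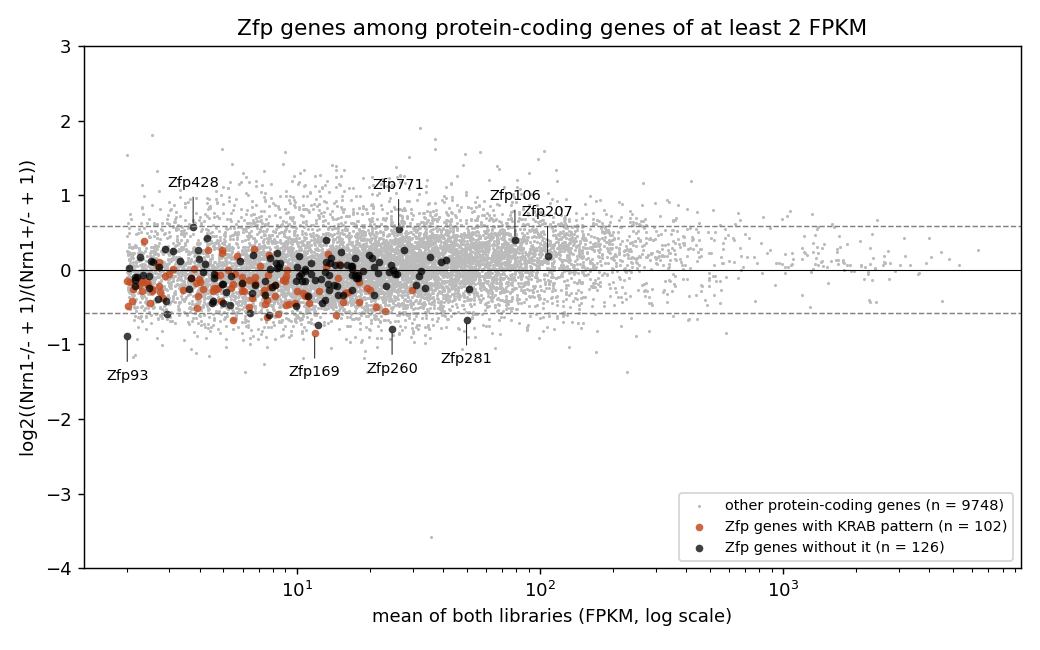
Log2 ratio of the Nrn1-/- over the Nrn1+/- library (vertical axis) against the mean of both libraries in FPKM (horizontal log axis) for 102 Zfp genes with the KRAB pattern, 126 without it and 9748 other protein-coding genes, 1 point per gene; dashed lines mark 1.5-fold. The Zfp points lie mostly just under 0 and none passes the upper dashed line, while the isolated point near the bottom is Nrn1.

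The same split was seen within ranges of level. Among genes with means of 2 to 5 FPKM, 56 of 77 Zfp genes were lower in Nrn1-/- cells (72.7%), against 54.0% of the other 1182 protein-coding genes in that range. From 5 to 10 FPKM the shares were 76.7% of 60 Zfp genes and 52.5% of 1508 others, and from 10 to 20 FPKM 68.3% of 63 and 49.1% of 2073. The gap was present in the range of 20 to 50 FPKM as well, with 16 of 25 Zfp genes lower (64.0%) and 42.8% of the others. Counting error was small for many genes. Taking fragments as estimated above, the 95% counting interval of the FPKM ratio left out 1 for 156 of 228 Zfp genes, of which 121 were lower and 35 higher. Such intervals cover counting error of these 2 libraries only. They were not computed for other genes, so the count has no background share, and another scaling of the libraries would move them.

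Genes with the KRAB pattern were lower in larger share than those without it as deposited, a comparison that has no test here. Of the 102 genes with the KRAB pattern, 86 were lower and 16 higher in Nrn1-/- cells (84.3% lower), with a median log2 ratio of -0.23. Of the 126 without it, 76 were lower and 50 higher (60.3%), with a median of -0.06. The gap in share depends on scale: 93 of 102 with the pattern and 99 of 126 without it were lower at the same protein-coding sum, and 98 of 102 and 118 of 126 at a sum of 1000000 FPKM, where the medians were -0.50 and -0.33. The wider match changed the deposited split little, with 97 of 117 lower (82.9%) against 65 of 111. Within each range of level the order was the same up to 50 FPKM: 81.0% and 61.8% lower with and without the pattern at 2 to 5 FPKM, 86.5% and 60.9% at 5 to 10 FPKM, and 84.2% and 61.4% at 10 to 20 FPKM. Only 4 KRAB genes had means of 20 to 50 FPKM, all 4 lower, beside 12 of 21 without the pattern. Of genes at least 1.5-fold lower, 5 held the short pattern and 6 did not, while by the wider match 7 of 117 KRAB genes and 4 of the 111 others were.

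**Figure D2:**
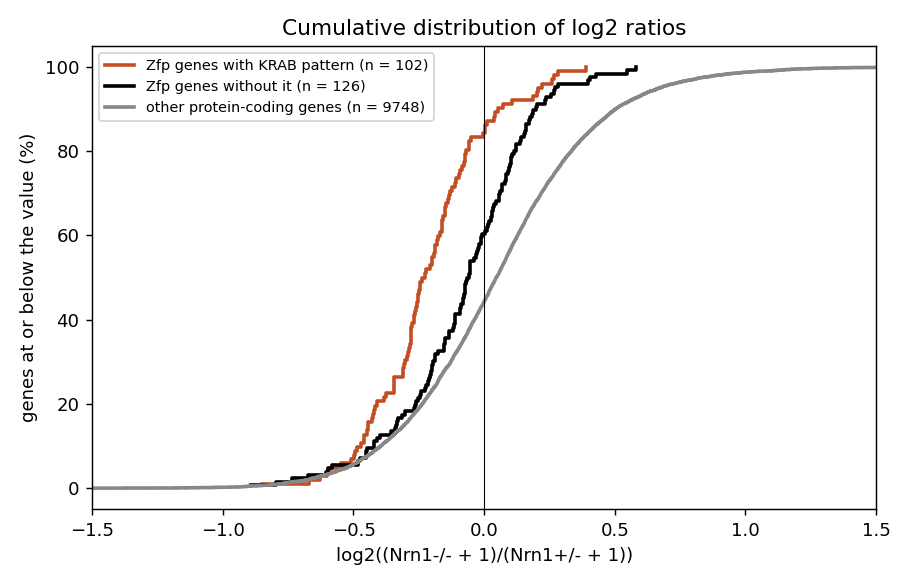
Cumulative share of genes (vertical axis, percent) at or below each log2 ratio of the Nrn1-/- over the Nrn1+/- library (horizontal axis) for Zfp genes with the KRAB pattern, Zfp genes without it and other protein-coding genes. The KRAB curve crosses 0 at 84.3%, the curve without it at 60.3% and that of other genes at 44.3%, and at the far left all 3 lie under 5% at a ratio of 1.5-fold lower.

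Genes with few fingers were the most evenly split. Of 35 genes with 1 to 4 fingers, 18 were lower in Nrn1-/- cells, and of 70 genes with 5 to 9 fingers 49 were lower. Of 72 genes with 10 to 14 fingers 57 were lower, and of 46 genes with 15 or more 36 were. Across the 228 genes, which share libraries and are not independent, Spearman's rho between finger number and log2 ratio was -0.23. Among the 102 KRAB genes alone it was -0.007, and among the other 126 it was -0.23. A single short pattern of the SCAN domain, a dimerization domain found beside zinc fingers, was matched in 5 genes. SCAN domains that depart from this pattern would be missed, so it is not a count of all SCAN genes. Of the 5 matched genes 4 were lower. These included Zfp287 (5.90 FPKM in Nrn1-/- cells, 9.50 in Nrn1+/- cells) and Zfp110 (17.8 and 21.3 FPKM), and the higher one was Zfp446 (4.22 and 3.73 FPKM).

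The largest negative ratios were shared between both classes. Zfp93 (ENSMUSG00000055305.14, GRCm38 chromosome 7, 24270420 to 24277794) had 1.11 FPKM in Nrn1-/- cells and 2.91 FPKM in Nrn1+/- cells, 2.63-fold lower with a log2 ratio of -0.89. It sat at the floor, rested on about 93.4 fragments in Nrn1-/- cells, and 31.5% of the 50-base stretches of its transcript also occur in other genes, so reads could be split. Zfp169 (ENSMUSG00000050954.14, chromosome 13, 48487647 to 48513451), a KRAB gene with 17 fingers, rested on about 649 fragments in Nrn1-/- cells. It stood at 8.19 FPKM in Nrn1-/- cells and 15.6 FPKM in Nrn1+/- cells, 1.90-fold lower, and no 50-base stretch of it is shared. Its null over heterozygous ratio of 0.527 had a counting interval of 0.481 to 0.577.

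Zfp260 (ENSMUSG00000049421.12, chromosome 7, 30094777 to 30107622), a protein made almost entirely of fingers, was at 17.8 FPKM in Nrn1-/- cells and 31.6 FPKM in Nrn1+/- cells, 1.78-fold lower. Zfp281 (ENSMUSG00000041483.13, chromosome 1, 136624901 to 136630053), a regulator of pluripotency genes in embryonic stem cells, was at 38.3 and 61.7 FPKM in Nrn1-/- and Nrn1+/- cells, 1.61-fold lower. Of the 4 Zfp genes whose mean reached 50 FPKM, it alone passed 1.5-fold. Zfp945 (chromosome 17) was at 8.96 against 15.6 FPKM, and Zfp182, on the X chromosome, at 3.998 against 6.96 FPKM. Zfp943 stood at 5.70 FPKM in Nrn1-/- cells and 9.36 FPKM in Nrn1+/- cells. Zfp287, Zfp53, Zfp608 and Zfp942 complete the 11 genes beyond 1.5-fold, and 4 of the 11 lie on chromosome 17.

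The largest positive ratios were smaller, and 6 of the 8 came from genes without the KRAB pattern. Zfp428 had 4.70 FPKM in Nrn1-/- cells and 2.81 FPKM in Nrn1+/- cells, a plain FPKM ratio of 1.67, but it stayed under 1.5-fold once the pseudocount was added. Its exons overlap a gene on the other strand, and since the library kit as labelled gives no strand, reads of the 2 genes cannot be told apart. Zfp771 was at 31.4 against 21.2 FPKM, 1.48-fold higher, and Zfp367 at 15.2 against 11.3 FPKM. Zfp296, a factor of pluripotent cells, was at 5.04 FPKM in Nrn1-/- cells and 3.49 FPKM in Nrn1+/- cells. The KRAB genes among the 8 were Zfp324 (2.81 against 1.91 FPKM) and Zfp282 (7.42 against 5.92 FPKM), and the next KRAB gene was Zfp764 (5.47 against 4.37 FPKM). The human counterpart of Zfp282 was described as binding a promoter element of a leukemia virus. Zfp239 (3.27 against 2.51 FPKM) closed the 8 largest. Exons of Zfp106, Zfp296 and Zfp367 also overlap opposite-strand genes, as do those of 62 Zfp genes in all.

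Position was examined next, because KRAB zinc finger genes lie in arrays. Zfp genes were found on 20 chromosomes, with 58 on chromosome 7 and 29 on chromosome 17. Members whose starts lie within 250 kb of the next formed 9 clusters of at least 5, holding 70 genes. Of these 51 were lower in Nrn1-/- cells, as were 76 of the 106 genes that stood alone, which are like shares over both classes. Within the classes the shares differed in opposite directions. Of genes with the KRAB pattern, 34 of 45 in such clusters and 52 of 57 outside them were lower. Of genes without it, 17 of 25 and 59 of 101 were. The clusters differed among themselves.

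The cluster on chromosome 17 from 21383748 to 22071168, from Zfp677 to Zfp943, had the lowest median log2 ratio of the 9, at -0.49. All 9 genes hold the KRAB pattern and all 9 were lower in Nrn1-/- cells. The values were 3.05 against 4.76 FPKM for Zfp677, 6.38 against 8.79 FPKM for Zfp51 and 11.3 against 17.6 FPKM for Zfp53, the Nrn1-/- library given first. Zfp942 stood at 6.48 against 10.3 FPKM, Zfp760 at 1.53 against 2.54 FPKM and Zfp943 as above. The remaining members were closer, with Zfp52 at 17.02 against 19.2 FPKM, Zfp948 at 6.51 against 7.03 FPKM and Zfp54 at 4.54 against 4.82 FPKM. Coding sequences of these 9 were 69.8% to 86.4% identical over 36 pairs, with a median of 75.8%. Zfp51 and Zfp53 were the closest pair. The 4 other protein-coding genes above the floor inside the interval were 3110052M02Rik, Gm10226, Gm10509 and 2210404O09Rik. Of these 3 were lower, with a median log2 ratio of -0.31 over the 4. Sequence is shared here too, since 1.9% of the 50-base stretches of Zfp51 also occur in Gm10226.

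Zfp genes just beyond this cluster on chromosome 17 were lower too. Zfp160 stood at 6.49 FPKM in Nrn1-/- cells and 8.27 FPKM in Nrn1+/- cells, Zfp944 at 5.41 and 6.78 FPKM, and Zfp758 at 4.05 and 5.77 FPKM. Zfp945 and Zfp40 (2.34 and 3.47 FPKM) lie further along. A separate cluster on the same chromosome, from 32765496 to 33394641, had 8 of 9 genes lower with a median of -0.16. Zfp871 was its most highly expressed gene, at 15.2 FPKM in Nrn1-/- cells and 20.8 FPKM in Nrn1+/- cells, and Zfp101 (6.10 and 5.23 FPKM) was the one higher. Over the whole chromosome 25 of 29 Zfp genes were lower, against 45.1% of 499 other protein-coding genes.

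The cluster of 10 genes on chromosome 13, from 67312998 to 67755228, was lower throughout with a median of -0.22. Zfp87 stood at 7.44 FPKM in Nrn1-/- cells and 10.7 FPKM in Nrn1+/- cells, and Zfp58 at 4.07 and 5.92 FPKM, while Zfp65 (5.45 and 5.71 FPKM) and Zfp738 (5.72 and 6.16 FPKM) were nearly level. Several of these genes share sequence with other genes, 50.2% of the 50-base stretches of Zfp58 and 26.1% of those of Zfp429, so their separate values are uncertain. The 4 other protein-coding genes above the floor in the interval, which are Zfp729a, Zfp729b, Zfp874a and Zfp874b, were lower as well. Nrn1 itself lies elsewhere on chromosome 13.

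**Figure D3:**
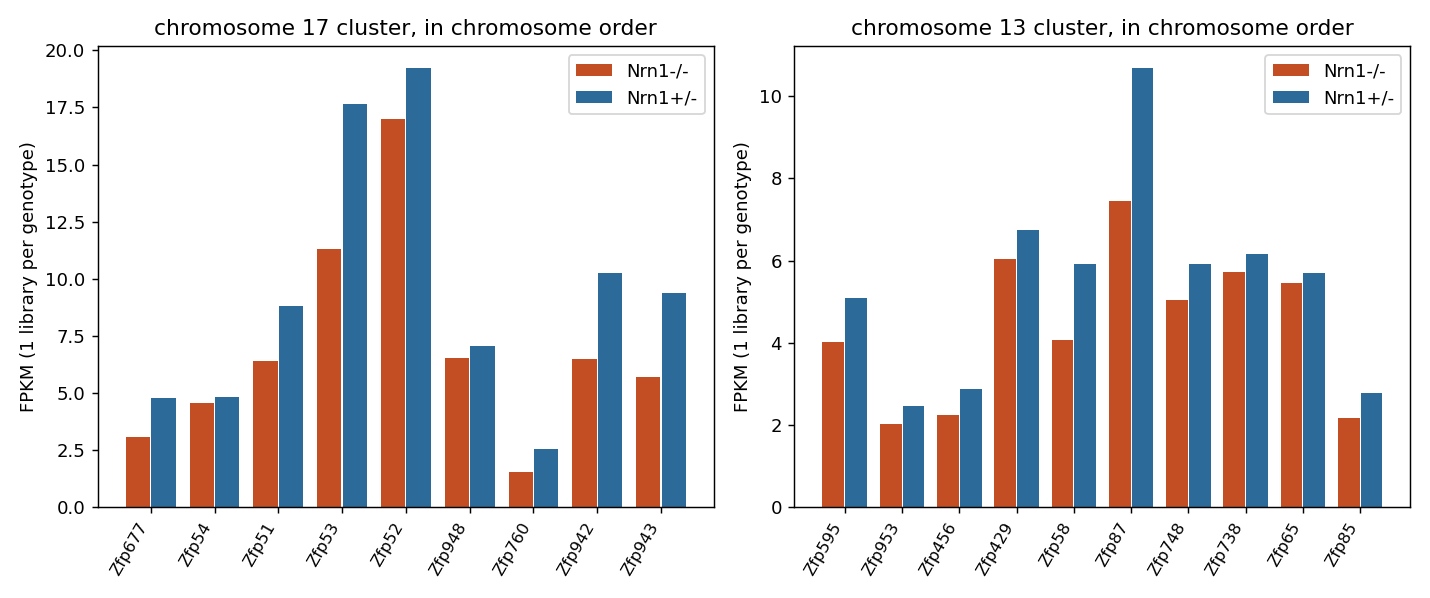
FPKM of each Zfp gene (vertical axis, bars from 0, Nrn1-/- left of Nrn1+/-, 1 library each) in the cluster of 9 genes on chromosome 17 and the cluster of 10 genes on chromosome 13, in chromosome order. Every Nrn1-/- bar is the shorter of its pair, by the most for Zfp53, Zfp942 and Zfp943 and by little for Zfp54, Zfp65 and Zfp738.

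The 4 clusters on chromosome 7 held genes of both signs. In the cluster from 127233061 to 127449158, 5 of 6 genes were higher in Nrn1-/- cells with a median log2 ratio of 0.06, but with other scalings of the libraries 2 or 3 of the 6 were. It holds Zfp771, Zfp764 and Zfp747 (5.21 FPKM in Nrn1-/- cells, 5.19 FPKM in Nrn1+/- cells), and all 4 other protein-coding genes above the floor there were higher. The largest cluster, with 12 genes from 29768552 to 30169750, was split 7 lower to 5 higher although 8 hold the KRAB pattern, but 9 of 12 were lower at the same protein-coding sum and all 12 at a sum of 1000000 FPKM. Within it Zfp260 stood at 17.8 FPKM in Nrn1-/- cells and 31.6 FPKM in Nrn1+/- cells, whereas its neighbour Zfp146, another protein built mainly of fingers, stood at 32.5 and 32.8 FPKM. Zfp568 (5.40 and 4.496 FPKM) was higher. Over chromosome 7, 31 of 58 Zfp genes were lower, against 44.2% of 695 other protein-coding genes.

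**Figure D4:**
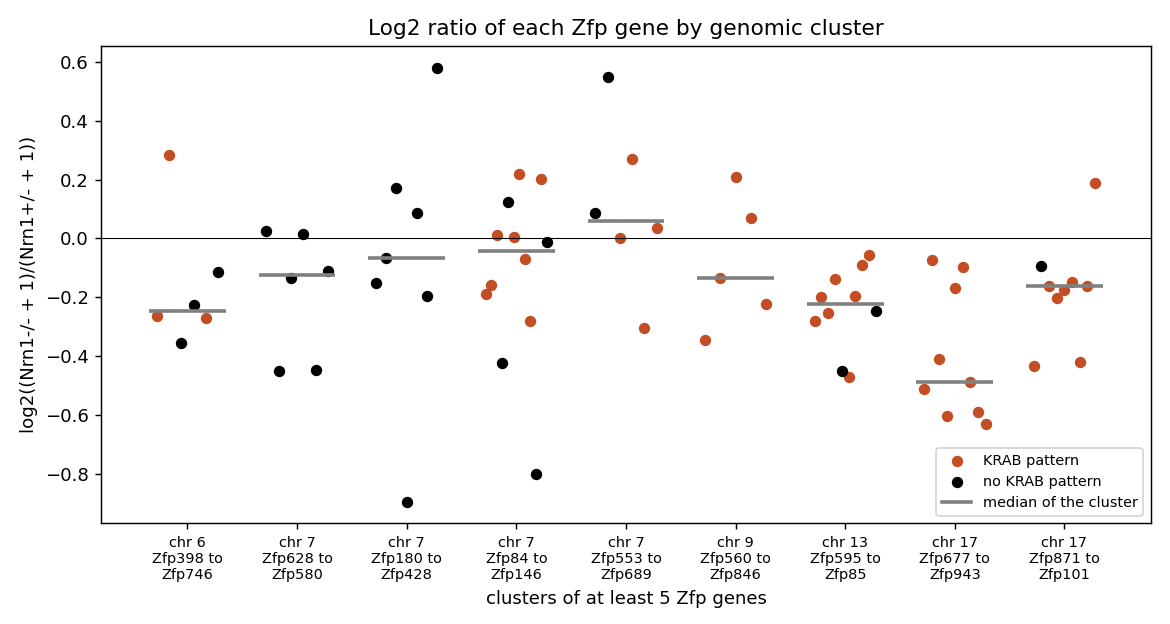
Log2 ratio of the Nrn1-/- over the Nrn1+/- library (vertical axis) for each of the 70 Zfp genes in the 9 clusters of at least 5 genes (horizontal axis, named by chromosome and by first and last gene), with the median of each cluster as a grey bar. Both the chromosome 13 cluster and the chromosome 17 cluster from Zfp677 to Zfp943 lie wholly under 0, while the clusters on chromosome 7 spread to both sides.

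Promoters were compared through RefSeq windows of 300 bases (250 before to 50 after the start, GRCm38.p6), which matched 192 of the 229 genes by symbol. One motif was searched on both strands, the letters ACTACA, any 2 bases and then TCCC, which is part of the site bound by Zfp143, itself a Zfp gene and an activator of many promoters. The motif was present in 32 of the 192 Zfp genes (16.7%) and in 377 of 7511 other protein-coding genes above the floor (5.02%). A gene was counted once if any of its windows held the motif, so genes with several windows had more chances. KRAB genes held it in 17 of 91 cases and the others in 15 of 101. The motif is printed in capitals in the 6 Zfp genes with it that had the largest negative ratios, in the direction of the gene. In the first 4 it reads on the opposite strand, as GGGA, any 2 bases and TGTAGT. These 6 are shown to set the element beside the values of its carriers.
Zfp93 (chr7:24270331-24270372, plus strand): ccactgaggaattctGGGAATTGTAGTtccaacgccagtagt
Zfp260 (chr7:30095032-30095073, plus strand): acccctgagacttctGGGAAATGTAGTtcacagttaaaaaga
Zfp1 (chr8:111643402-111643443, plus strand): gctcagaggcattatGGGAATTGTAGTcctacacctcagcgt
Zfp58 (chr13:67500527-67500568, minus strand): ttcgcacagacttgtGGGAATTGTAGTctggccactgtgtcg
Zfp420 (chr7:29859905-29859946, plus strand): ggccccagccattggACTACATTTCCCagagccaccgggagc
Zfp28 (chr7:6383158-6383199, plus strand): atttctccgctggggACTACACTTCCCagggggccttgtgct

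Zfp genes with and without the motif had similar medians. The median log2 ratio was -0.17 in the 32 Zfp genes with it and -0.14 in those without it. In Nrn1-/- cells 26 of the 32 were lower, beside 163 of all 229 Zfp genes and 155 of the 377 other genes with the motif. The order differed by class. Medians with and without it were -0.19 and -0.25 in KRAB genes, and -0.09 and -0.06 in the other Zfp genes. Zfp143 itself was at 12.5 FPKM in Nrn1-/- cells and 14.3 FPKM in Nrn1+/- cells. Promoters of KRAB genes also held fewer CpG pairs, taking the window with the most for each gene. The median was 12, against 21 in the other Zfp genes and 23 in other protein-coding genes. A match is a description of letters and not a site.

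Zfp genes with a known role were then read by role, of which 29 of the 32 listed passed the floor. Of these, 15 were lower and 14 higher in Nrn1-/- cells, where 44.9% of all protein-coding genes above the floor were lower. Directions of higher genes here depend on scale, since at a sum of 1000000 FPKM per library 1 of the 3 ribosome genes and 1 of the 7 RNA genes were higher. Zfp622, whose yeast counterpart acts in maturation of the large ribosomal subunit, stood at 40.5 FPKM in Nrn1-/- cells and 37.8 FPKM in Nrn1+/- cells. Zfp598, a ubiquitin ligase that marks collided ribosomes, was at 37.7 and 33.2 FPKM, and Zfp593, whose yeast counterpart serves export of the large subunit, at 3.47 and 2.74 FPKM. As deposited all 3 were higher, none by 1.5-fold, and at the same protein-coding sum 2 of 3 were.

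Of the 7 genes of RNA binding and processing 5 were higher as deposited and 4 at the same protein-coding sum. Zfp207, which binds spindle microtubules and the checkpoint protein Bub3, was the most highly expressed gene of the family, at 115 FPKM in Nrn1-/- cells and 101 FPKM in Nrn1+/- cells. Zfp106, an RNA-binding protein needed by motor neurons, was second at 90.2 and 67.9 FPKM, 1.33-fold higher. Zfp346, a binder of double-stranded RNA, stood at 21.3 and 18.5 FPKM, and Zfp318, known for control of IgD in B cells, at 7.14 and 6.07 FPKM. Zfp830, a splicing factor, was nearly level at 16.5 and 15.7 FPKM. The lower members were Zfp638 (30.9 and 36.7 FPKM), whose human counterpart silences unintegrated retroviral DNA, and Zfp326 (16.9 and 17.8 FPKM), which in human cells links transcript elongation to splicing. The remaining gene among the 8 most expressed, Zfp330, was at 43.2 FPKM in Nrn1-/- cells and 39.2 FPKM in Nrn1+/- cells.

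The ligases differed little. Zfp91, a ubiquitin ligase of the noncanonical NF-kB pathway, stood at 30.8 FPKM in Nrn1-/- cells and 32.7 FPKM in Nrn1+/- cells, and Zfp451, a SUMO ligase, at 12.9 and 13.2 FPKM. Among 7 promoter-binding regulators 5 were lower, led by Zfp281. Zfp740 (46.7 and 56.0 FPKM), Zfp384 (28.7 and 33.2 FPKM) and Zfp148, which binds GC-rich promoters (17.2 and 18.7 FPKM), were lower by less. Zfp410, an activator of the remodeller gene Chd4, was higher at 16.5 against 13.9 FPKM, while Chd4 stood at 138 FPKM in Nrn1-/- cells and 120 FPKM in Nrn1+/- cells. Zfp64 was at 18.4 against 16.4 FPKM. Of the Z3 proteins, which act with Zmynd8, Zfp687 was at 13.6 against 17.4 FPKM and Zfp592 at 25.01 against 23.8 FPKM. The third, Zfp532, was at 0.0566 and 0.0276 FPKM and below the floor.

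KRAB factors with established targets were split as deposited, with 2 of 4 lower. This depends on scale, since 3 of 4 were lower at the same protein-coding sum and all 4 at a sum of 1000000 FPKM. Zfp445, which maintains genomic imprints, stood at 26.8 FPKM in Nrn1-/- cells and 32.7 FPKM in Nrn1+/- cells. Its partner in imprinting, Zfp57, was below the floor at 0.380 and 0.289 FPKM. Zfp809, which silences retroviruses that use a proline tRNA primer site, was at 13.5 and 13.04 FPKM, and Zfp932, a repressor of endogenous retroviruses, at 17.4 and 18.1 FPKM. The value of Zfp932 is uncertain because 55.5% of its 50-base stretches are shared, mostly with Gm15446. Zfp568, which silences a placental Igf2 transcript, was higher at 5.40 against 4.496 FPKM.

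Lymphocyte factors included Zfp335, needed for naive T cells to mature, at 17.2 FPKM in Nrn1-/- cells and 16.5 FPKM in Nrn1+/- cells. Zfp608, a repressor of the Rag genes in thymocytes, was at 2.12 and 3.72 FPKM, 1.76-fold lower. Zfp609 (10.7 and 10.9 FPKM) was level, and Zfp831 stood at 5.72 and 7.36 FPKM. Zfp683, which encodes Hobit of tissue-resident lymphocytes, was below the floor at 0.613 and 0.167 FPKM.

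**Figure D5:**
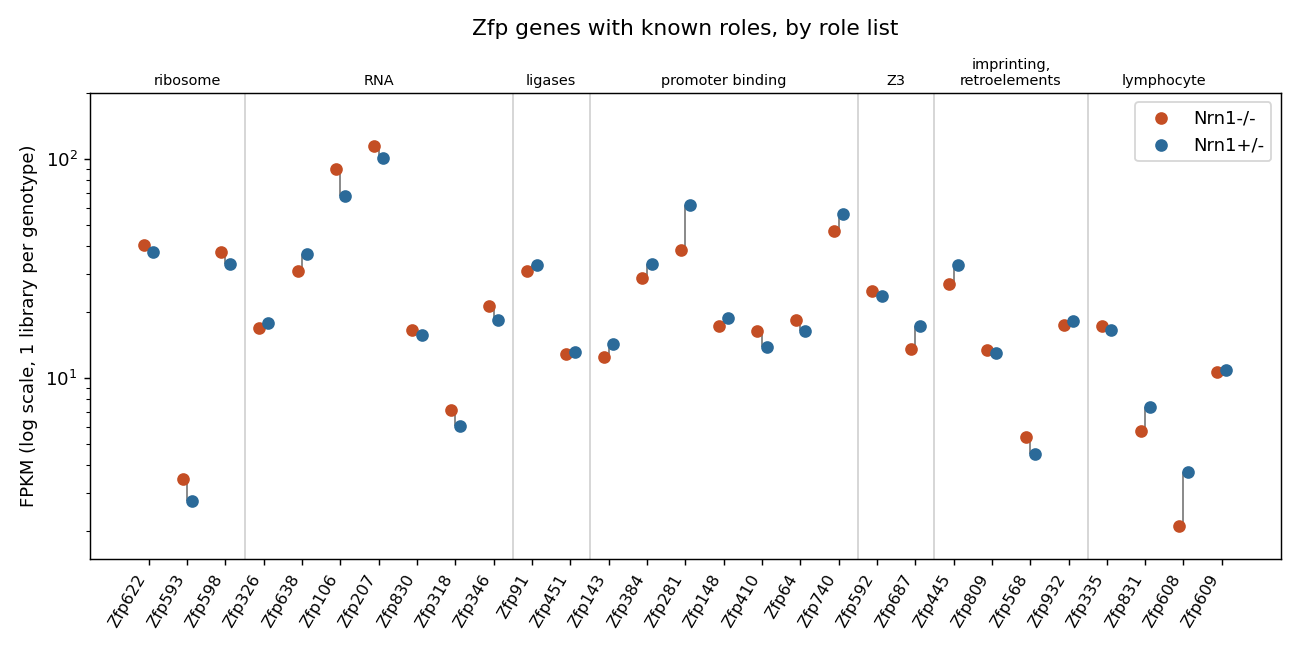
FPKM (vertical log axis) of the 29 Zfp genes in the role lists, Nrn1-/- library left and Nrn1+/- library right of each pair, 1 library each, with Zfp598 shown once under ribosome. The pairs of the ribosome group lie higher in Nrn1-/- cells, while Zfp281, Zfp608 and Zfp687 have the largest negative log2 ratios, -0.67, -0.60 and -0.33.

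The listed corepressor genes were mostly higher as deposited. The list reaches beyond direct partners of the KRAB domain, to genes of chromatin remodelling and DNA methylation. Of 26 corepressor genes above the floor 20 were higher in Nrn1-/- cells and 6 lower with a median log2 ratio of 0.29. As deposited 55.1% of all protein-coding genes were higher. Of the 2240 genes outside the family with means of at least 50 FPKM, near the corepressors' median of 55.8 FPKM, 1542 were. At a sum of 1000000 FPKM per library 13 corepressor genes were higher and 13 lower, where 75.5% of all protein-coding genes were lower. Trim28, the protein that KRAB binds, stood at 200.4 FPKM in Nrn1-/- cells and 149.8 FPKM in Nrn1+/- cells, and Setdb1 at 23.9 and 20.8 FPKM. The heterochromatin protein genes Cbx3 (137 and 94.6 FPKM) and Cbx5 (31.5 and 22.1 FPKM) were higher. At least 1.5-fold higher were 2 of the 26 (7.69%), near the 7.07% of all protein-coding genes above the floor. These 2 were Uhrf1 (86.4 and 37.0 FPKM) and Dnmt1 (104 and 60.5 FPKM), both factors of maintenance DNA methylation and both tied to DNA replication. Fam208a, a subunit of the HUSH silencing complex, was the lowest ratio at 6.73 against 10.3 FPKM, and Atf7ip, a partner of Setdb1, was at 22.4 against 29.7 FPKM. Cell cycle genes of G2 and mitosis stood higher alongside in 15 of 15 cases, with sums of 919 FPKM in Nrn1-/- cells and 358 FPKM in Nrn1+/- cells, and their part in the Zfp differences was not tested.

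Other families also had more lower than higher genes, where 44.9% of all protein-coding genes above the floor were lower. Of Zbtb genes, zinc finger proteins with a BTB domain, 28 of 36 were lower in Nrn1-/- cells with a median log2 ratio of -0.12, and of Zscan and Zkscan genes 13 of 16 were lower with a median of -0.21. Kruppel-like factor genes were lower in 6 of 8 cases with a median of -0.34, and Trim genes in 25 of 32 with a median of -0.25. Of the 32 Trim genes 5 were at least 1.5-fold lower (15.6%), beside 3.6% of all protein-coding genes. So were 2 of 16 Zscan and Zkscan genes (12.5%), 1 of 8 Kruppel-like factor genes (12.5%) and 2 of 36 Zbtb genes (5.56%). No test of a difference from the Zfp genes was possible.

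Sequence sharing and scale bear on these values. In 33 genes over 10% of 50-base stretches also occur in another gene, and 27 of these were lower in Nrn1-/- cells. Of the 195 genes up to that limit, 135 were lower (69.2%) with a median log2 ratio of -0.12. Of the 111 genes that share no such stretch, 68 were lower (61.3%) with a median of -0.075. Rescaling each library to a sum of 1000000 FPKM shifted ratios by about -0.29 on the log2 scale. It left 217 of 229 genes lower, 52 of them by 1.5-fold, beside 75.5% and 15.4% of all protein-coding genes above the floor. The median over all protein-coding genes moved as well, to -0.23, beside -0.40 for the Zfp genes. Counts and sizes thus depend on the scale.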

How the data were processed

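Poly(A) RNA of 1 library per genotype was sequenced, and the authors deposited 1 value per gene and library. The deposited values are FPKM, judged from the values themselves. Per the submitters' processing notes, TopHat, Cuffdiff, Cuffnorm and FastQC were used with mm10 and GRCm38. Neither their versions nor how the libraries were scaled is stated in those notes, and scaling can shift every ratio alike.

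Ratios are on the log2 scale, Nrn1-/- over Nrn1+/-, after adding 1 FPKM to both values, so differences of low genes are understated. With 1 library per genotype no test was run, and counts are set beside protein-coding genes above the same floor of 2 FPKM. Members and gene lists were chosen with earlier results of these data known. Named genes are the 8 largest ratios each way, the 8 highest means, the role lists, the 3 on each side of the floor, the 3 largest ratios each way per domain class, and genomic clusters given whole. Others named were chosen after their values were seen.

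GENCODE M21 (GRCm38) gave positions and coding sequences, which Biopython 1.88 translated. The planned RefSeq proteins were not used here. The KRAB pattern asked for phenylalanine or tyrosine, then aspartate, valine (or leucine or isoleucine), phenylalanine, glutamate and tryptophan at their A-box spacing. A wider match needing 9 of 13 A-box positions was added after the data were seen. Other pseudocounts, library scalings, floors, KRAB patterns and member filters were tried as alternatives.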

Additional observations from a re-analysis of the deposited data

How the results depend on the processing

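No paired analysis was possible because each genotype has 1 library, and for the same reason no library could be left out. The Zfp genes had more lower than higher members under all alternatives tried. For all Zfp genes, KRAB genes and non-KRAB genes in that order, the median log2 ratios were -0.16, -0.28 and -0.070 with a pseudocount of 0.1 FPKM and -0.15, -0.26 and -0.066 with 0.5 FPKM. They were -0.40, -0.50 and -0.33 at a sum of 1000000, -0.25, -0.34 and -0.17 at the same protein-coding sum, -0.19, -0.29 and -0.12 with upper-quartile scaling, and -0.19, -0.27 and -0.10 after centring on protein-coding genes. A floor of 5 FPKM gave -0.13, -0.27 and -0.054, a floor of 1 FPKM -0.15 and -0.21 for the first 2, and no filter -0.10, -0.17 and -0.028. The looser KRAB pattern and the match at 9 of 13 positions both gave -0.23 for KRAB genes and gave -0.055 and -0.054 for the others. Without the genes that share 50-base stretches the median was -0.12, and without those overlapping an opposite-strand gene it was -0.16, -0.25 and -0.075. The last of these and the 13-position match were chosen after seeing the data. Genes at least 1.5-fold higher came to 1, Zfp428, with either smaller pseudocount. Genes at least 1.5-fold lower came to 17 at the same protein-coding sum, beside 6.72% of all protein-coding genes. At a sum of 1000000 they came to 52, beside 15.4%. At the sum of 1000000, 118 of 126 non-KRAB genes, 98 of 102 KRAB genes and 13 of 26 corepressor genes were lower. Of all protein-coding genes 75.5% were lower there. A floor of 5 FPKM left 107 genes lower, 52 of them KRAB, because fewer genes were tested. Depth limits low values on short transcripts most: over all Zfp genes the estimates began at 65.9 fragments in Nrn1-/- cells and, for another gene, at 96.0 in Nrn1+/- cells.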
